A study of Mus musculus with 2 samples.

Results

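Gfra1 and Gfra2 encode the co-receptors for GDNF and neurturin, and they were followed here as 2 of the 140 genes of an imaging panel, read from the columns of those names in all 4 region tables. The tables hold 31893 segmented cells from 10 µm frozen sections of duodenum and colon of 1 male and 1 female C57Bl6 mouse aged 6 to 10 weeks, imaged by MERSCOPE, a method that decodes single transcripts in place from combinatorial barcodes. No treatment or allele separated the animals, and each animal gave 2 regions. The labels do not say which region is duodenum and which is colon, so the regions carry their numbers, written male 0, male 1, female 0 and female 1 where all 4 are listed, and were not matched between the animals.

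Both proteins are held at the cell surface by a lipid anchor and present their ligands to the receptor tyrosine kinase RET, GFRA1 mainly GDNF and GFRA2 mainly neurturin. In the gut, GDNF acting through GFRA1 and RET is needed for neural crest cells to colonise the bowel, and neurturin acting through GFRA2 is needed for normal cholinergic innervation of its muscle. Of 14 genes listed for this pathway, the 2 co-receptors alone were on the panel. RET, the ligands and the adhesion receptor NCAM1 were not measured, so the ligand and signalling side of the pathway is not described. How well each gene's probes detect its transcripts is not given in the sources used here, so the level of Gfra1 is not set against that of Gfra2. Changes in their proportion are.

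Depth was low and uneven. The summed panel counts were 3048 for male 0, 582 for male 1, 4288 for female 0 and 45942 for female 1. Of the segmented cells, 88.6%, 91.2%, 77.2% and 44.6% held no panel count, in the same order. A level below is a count per 10000 panel counts, and brackets hold exact 95% intervals, which cover counting error only. No cell identifier was shared between the tables.

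Both co-receptors were detected above the background of false decoding in both animals, Gfra2 more securely than Gfra1. The background was read from 40 blank barcodes, which match no gene. Gfra2 counts were 46 for male 0, 11 for male 1, 72 for female 0 and 86 for female 1, against a highest blank of 9, 2, 33 and 46, so it exceeded every blank in each region. Gfra1 had 31, 3, 15 and 52 counts in the same order. It exceeded every blank in 3 regions, but by 1.5-fold in male region 1 and 1.13-fold in female region 1, and 3 blanks of female region 0 had as many counts or more. Against the mean blank, Gfra1 stood at 28.8-, 17.1-, 4.03- and 3.65-fold and Gfra2 at 42.8-, 62.9-, 19.3- and 6.04-fold. Gfra2 ranked 12th, 11th, 11th and 64th among the 140 genes by summed count, and Gfra1 21st, 42nd, 46th and 91st. The Gfra1 counts of female region 0 are thus the least certain in what follows.

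**Figure D1:**
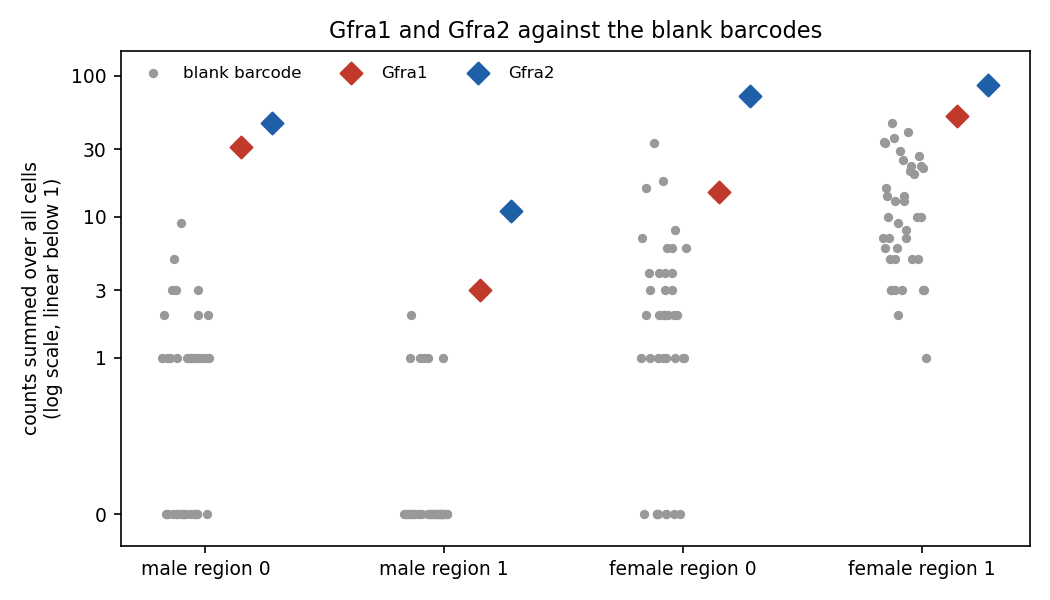
Counts of Gfra1 and Gfra2 (diamonds) and of each of the 40 blank barcodes (grey points), summed over all cells of each region, on a log axis that is linear below 1. Gfra2 lies above all blanks in the 4 regions, while Gfra1 in female region 0, at 15 counts, lies below 3 of them.

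The transcripts were spread over many cells, nearly always 1 to a cell. The 101 Gfra1 counts lay in 97 cells and the 215 Gfra2 counts in 188 cells. No cell held more than 2 Gfra1 counts or 3 Gfra2 counts. Levels that rest on 1 to 3 counts, such as Gfra1 in male region 1, still turn on single cells. In female region 1 each of the 52 Gfra1-positive cells held 1 count, and 82 of the 84 Gfra2-positive cells did. Female region 0 had the most cells with several Gfra2 counts, with 5 cells at 2 and 5 at 3. Positive cells were deeper than the typical cell with any count, except for Gfra1 in male region 1: their median depth was 6, 1, 5.5 and 10.5 panel counts for Gfra1 and 7, 2, 11 and 11 for Gfra2, while cells with any count had a median of 1 in 3 regions and 3 in female region 1. Levels per 10000 counts were used for that reason in place of shares of positive cells.

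Relative to the other panel genes, Gfra2 took a larger part of the transcripts in the male regions and female region 0 than in female region 1. Gfra1 levels lay the same way, but beyond both counting error and background only for male region 0. The Gfra2 level was 151 (110 to 201), 189 (94.3 to 338), 168 (131 to 211) and 18.7 (15.0 to 23.1) for male 0, male 1, female 0 and female 1. The 3 higher levels lie within each other's intervals, and female region 1 lies apart. The Gfra1 level was 102 (69.1 to 144), 51.5 (10.6 to 151), 34.98 (19.6 to 57.7) and 11.3 (8.45 to 14.8). Its order had male region 0 highest and female region 1 lowest. The interval of male region 1, from 3 counts, spans both neighbours and overlaps that of female region 1. Between the female regions, region 0 over region 1, Gfra1 stood at 3.09-fold (1.62 to 5.57), beside 8.97-fold for Gfra2. The 40 blanks together were 2.80-fold higher per panel count in female region 0 (2.32 to 3.36). Relative to them, Gfra1 stood at 1.10-fold (0.577 to 1.99) and Gfra2 at 3.20-fold (2.31 to 4.43), so the Gfra1 difference could not be told from that of the background. Per panel count, both pass 2-fold, as did 26.8% of the 127 genes with at least 20 counts over both regions. Between the male regions the ratio, region 0 over region 1, was 0.798 for Gfra2 (0.407 to 1.71) and 1.97 for Gfra1 (0.615 to 10.1), both spanning 1. Each region is a single section, so no test was made.

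The female difference in Gfra1 rests on the scale. Per 1000 cells, Gfra1 had 3.99, 0.737, 2.36 and 3.79 counts for male 0, male 1, female 0 and female 1, and the ratio of female region 0 over region 1 turned to 0.623 (0.326 to 1.12). Gfra2 had 5.92, 2.70, 11.4 and 6.27 counts per 1000 cells and kept its direction in the female, at 1.81-fold (1.30 to 2.50). Between the male regions the per-cell ratio of Gfra2 turned to 2.19 (1.12 to 4.68). These values divide by all segmented cells, and the share of cells with no panel count differed between the regions. They are therefore not levels per measured cell. Fewer transcripts per cell and fewer cells of a type cannot be told apart in such sums.

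Per animal, the Gfra1 level was 93.7 for the male against 13.3 for the female, a mean of 53.5 ± 56.8 (SD over 2 animals). The Gfra2 level was 157 for the male against 31.5 for the female, a mean of 94.2 ± 88.8 (SD over 2 animals). The ratios, male over female, were 7.02 for Gfra1 (4.51 to 10.8) and 4.99 for Gfra2 (3.62 to 6.80), and 35.3% of the 136 genes with at least 20 counts over both animals were at least 2-fold higher in the male. Per segmented cell, empty ones included, both fell below 1, to 0.859 for Gfra1 (0.551 to 1.32) and 0.611 for Gfra2 (0.443 to 0.832). The female level is mostly that of female region 1, which had 45942 panel counts beside 4288 in female region 0. The Gfra2 level of female region 0 was 168, beside 151 in male region 0 and 189 in male region 1. For Gfra1 the same levels were 34.98, 102 and 51.5. There is 1 animal per sex, so sex, animal, and the depth and tissue of the regions cannot be told apart.

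The balance between the co-receptors was tilted most towards Gfra2 in female region 0. Of the Gfra1 and Gfra2 counts of male 0, 59.7% were Gfra2 (47.9 to 70.8), and the share was 78.6% for male 1 (49.2 to 95.3). It was 82.8% for female 0 (73.2 to 90.0) and 62.3% for female 1 (53.7 to 70.4). This share needs no scaling to depth or cell number. The interval of female region 0 lies above those of female region 1 and male region 0, and that of male region 1, from 14 counts, overlaps all of them.

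Cells were next grouped by marker counts: Snap25 cells hold at least 2 counts of this synaptic vesicle fusion gene, Des cells at least 2 counts of the muscle filament gene desmin, Pdgfra cells at least 1 count of this stromal growth factor receptor, and neuronal-marker cells at least 1 count summed over Sncg, Tubb3, Stmn2 and Chrna3. Levels in these groups, and in the other cells they are set against, leave the group's own markers out of the total. The groups were small outside female region 1, which held 3, 264, 533 and 105 cells of these groups in the order given. Male 0, male 1 and female 0 held 29, 10 and 77 Snap25 cells, 26, 8 and 14 neuronal-marker cells, 17, 12 and 5 Pdgfra cells and no Des cell.

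Gfra2 was denser in Snap25 cells than in all other cells of the same region, in the 3 regions with 10 or more Snap25 cells. In female region 0, 48 of the 72 Gfra2 counts lay in 77 Snap25 cells, 423 per 10000 (312 to 561), against 89.9 in the other cells (57.6 to 134). That is 4.71-fold (2.83 to 8.04), 5th by ratio of the 34 genes with at least 20 counts, of which 35.3% were at least 2-fold higher and whose median ratio was 0.486. In male region 0, the Snap25 cells stood at 313 (188 to 488) and the other cells at 121 (79.6 to 176), 2.59-fold (1.36 to 4.83), where 39.1% of 23 genes were at least 2-fold higher and the median ratio was 1.22. In male region 1, 3 of 11 Gfra2 counts lay in 10 Snap25 cells, at 3.49-fold (0.596 to 14.5). The 3 Snap25 cells of female region 1 held no Gfra2 count, and the exact interval of that level runs up to 307 per 10000. Gfra2 was therefore higher in Snap25 cells in each of the 3 regions with 10 or more such cells, with intervals that leave out 1 in the first 2.

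Gfra1 leaned the same way with less certainty. In male region 0, Snap25 cells stood at 197 (102 to 345) and other cells at 85.0 (51.2 to 133), 2.32-fold (1.03 to 5.04). That lower bound lies close to 1, on the scale without Snap25 counts. With them kept in the total, the level in these Snap25 cells was 168 (86.7 to 293). In female region 0 the levels were 61.7 in Snap25 cells and 30.0 in other cells, 2.06-fold (0.636 to 6.50), on 7 and 8 counts. The highest blank had 25 counts in the Snap25 cells of that region, more than Gfra1 and fewer than the 48 of Gfra2. The difference was of like size among deep cells: with at least 10 panel counts, Gfra2 was 5.11-fold higher in the 47 Snap25 cells of female region 0 than in the 30 others (1.86 to 19.6) and 2.87-fold higher in the 17 Snap25 cells of male region 0 than in the 38 others (1.14 to 7.81).

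Over both animals the test did not call either gene. Counts were summed per animal and cell group and tested with the animal as a block (edgeR quasi-likelihood test, Benjamini-Hochberg adjustment over 105 genes, threshold 0.05). Gfra2 stood at 333 in male and 383 in female Snap25 cells, against 129 in male and 22.7 in female other cells, a log2 fold change of 2.75 (SE 1.48, adjusted p 0.279). Gfra1 stood at 182 and 55.8 in male and female Snap25 cells, against 80.9 and 12.4 in the others, a log2 fold change of 1.65 (SE 0.997, adjusted p 0.292). With Snap25 kept in the total, the changes were 2.45 for Gfra2 (edgeR adjusted p 0.212) and 1.36 for Gfra1 (edgeR adjusted p 0.328). Each gene was higher in Snap25 cells in both animals. The call depended on female region 1, which gave most of the other cells of the female but 3 of its 80 Snap25 cells. Without that region, a choice made after seeing the data, the Gfra2 change was 1.81 (SE 0.473, adjusted p 0.00220) with 7.62% of genes called higher, and Gfra1 stayed uncalled at 1.10 (SE 0.629, adjusted p 0.221). DESeq2 on all regions called Gfra2 (3.11, adjusted p 0.0412), with 5.71% of genes called higher, and did not call Gfra1 (2.01, adjusted p 0.0765). The edgeR test on all regions called no gene higher (0%) and 3.81% lower, namely Des, Vim, Ppard and Stard13, with 19 genes at an unadjusted p under 0.05.

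Other markers of enteric neurons were few in the Snap25 cells, while some synaptic genes were dense there. Sncg, Tubb3, Stmn2 and Chrna3, which mark neurons by their cytoskeleton, synuclein and nicotinic receptor, together had 1, 1 and 2 counts in the Snap25 cells of male 0, male 1 and female 0. Sncg and Stmn2 were at 0 in all 3. Their summed level was 16.4 in Snap25 cells against 130 in other cells in male region 0 (0.127-fold, 0.00310 to 0.764), and 17.6 against 44.9 in female region 0 (0.393-fold, 0.0427 to 1.76). Among synaptic genes, named after their values were seen, Dlgap1 was 4.69-fold higher in Snap25 cells of male region 0 (3.35 to 6.59) and 7.07-fold in female region 0 (5.51 to 9.14). The vesicle gene Syt4 was 2.76-fold higher (1.49 to 5.03) and 2.73-fold higher (1.54 to 4.86) in these regions. Pclo was 1.19-fold (0.518 to 2.48) in male region 0 and 9.73-fold (6.12 to 16.1) in female region 0. The summed level of the glial markers S100b, Cdh19, Sox10 and Gfap was 132 in Snap25 cells against 94.0 in other cells of male region 0, and 123 against 97.3 in female region 0, with ratios of 1.40 (0.536 to 3.29) and 1.27 (0.612 to 2.52), while the Snap25 cells of male region 1 held none. These 4 genes are not all the glial markers of the panel, so their sum does not stand for glial RNA as a whole. Taken singly, S100b was 1.53-fold (0.423 to 4.67) in male region 0 and 1.57-fold (0.326 to 6.62) in female region 0. Cdh19 was 1.22-fold (0.121 to 6.85) and 2.02-fold (0.561 to 7.02) there, and these intervals span 1. Gfap had 1 count in Snap25 cells against 0 in other cells of male region 0, and 3 against 2 in female region 0. Sox10, a transcription factor that defines glia, had 0 against 3 and 1 against 11 counts in the same regions. The water channel gene Aqp8 had 17 of its 20 counts of female region 0 in Snap25 cells. The part of these other cell type markers in the Gfra2 result was not tested.

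**Figure D2:**
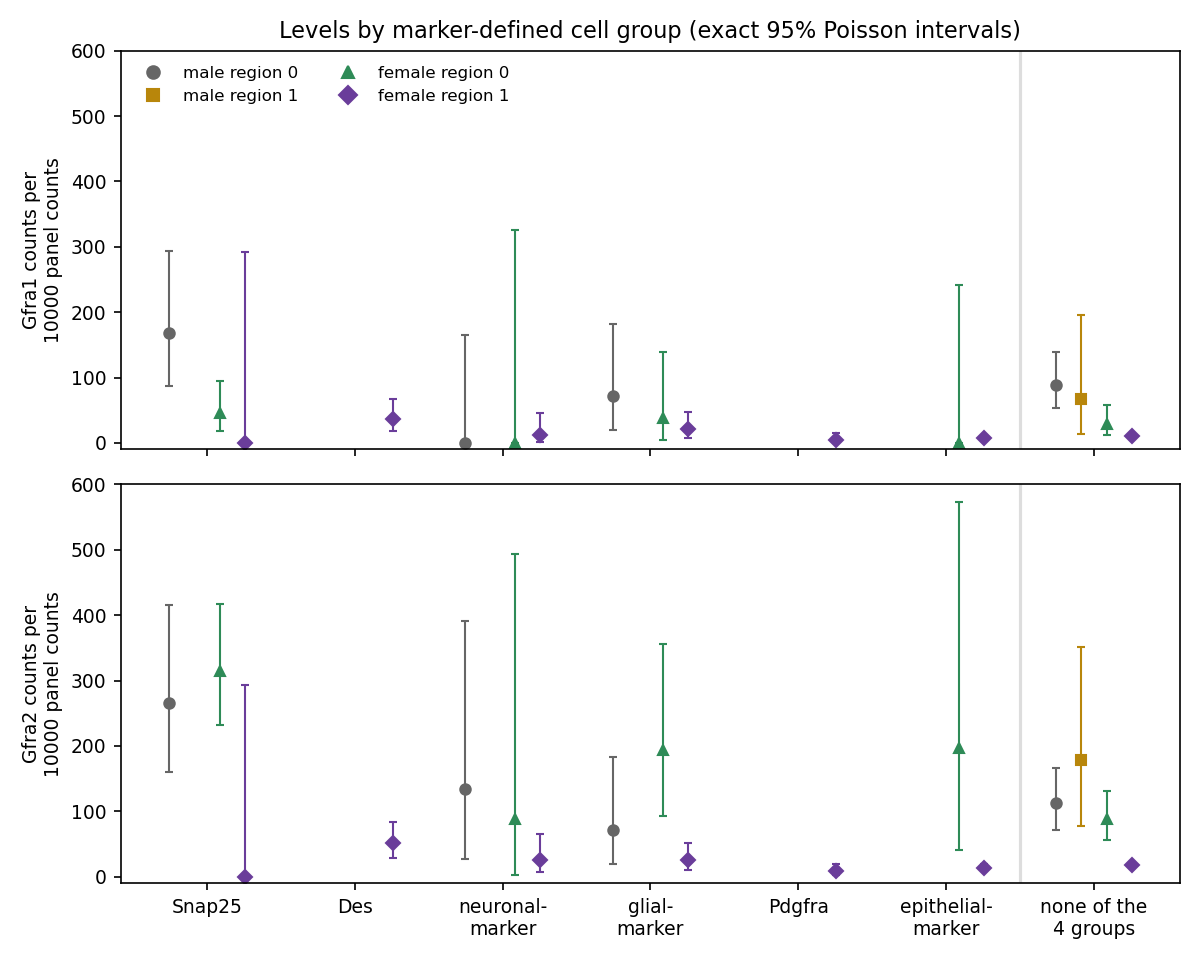
Counts of Gfra1 (top) and Gfra2 (bottom) per 10000 panel counts, own markers included, in cell groups with at least 100 panel counts, by region; bars are exact 95% Poisson intervals. Snap25 cells of male region 0 and female region 0 stand highest for Gfra2, and in female region 1 Des cells stand above the cells in none of the 4 groups for both genes.

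In female region 1, where muscle and stromal cells were captured, both co-receptors were richest in Des cells. Gfra1 had 11 of its 52 counts in the 264 Des cells, 56.7 per 10000 (28.3 to 101), against 9.65 in the other cells (6.93 to 13.1), or 5.87-fold (2.72 to 11.6). Gfra2 had 15 of its 86 counts there, 77.3 per 10000 (43.3 to 127), against 16.7 in the other cells (13.1 to 21.1), or 4.62-fold (2.46 to 8.15). By ratio they were 4th and 7th of 120 genes, of which 27.5% were at least 2-fold higher in Des cells and whose median ratio was 1.12. The muscle kinase gene Dmpk, at 9.73-fold, the calcium channel gene Cacna1c, at 7.90-fold, and the neuronal marker Sncg, at 6.04-fold (3.24 to 10.6), stood above both. In Des cells the 40 blanks together were also 2.06-fold higher (1.503 to 2.76), and relative to the blank counts of the same cells Gfra1 was 2.85-fold (1.32 to 5.65) and Gfra2 2.25-fold higher (1.20 to 3.96). With desmin kept in the total, the ratios were 3.90 for Gfra1 (1.81 to 7.73), 3.07 for Gfra2 (1.64 to 5.42) and 1.37 for the blanks (0.999 to 1.84).

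By depth, the Des ratios were taken with desmin kept in the total, the scale of the 3.90 and 3.07 above. They lay above 1 at each depth, but 4 of the 6 intervals span 1. In cells with 2 to 9 panel counts, which hold 151 of the 264 Des cells, Gfra1 stood at 2.27-fold (0.257 to 9.41) and Gfra2 at 2.49-fold (0.482 to 8.12). In cells with 10 to 19 panel counts, Gfra1 stood at 4.14-fold (0.932 to 14.8) and Gfra2 at 3.92-fold (1.49 to 9.39). In cells with 20 or more, Gfra1 stood at 7.01-fold (1.85 to 23.3) and Gfra2 at 2.29-fold (0.575 to 6.76). Co-detection with any desmin count was near the number predicted from depth. Over all regions, 16 Gfra1-positive cells held desmin, 1.08 times the number that depth alone predicts (0.620 to 1.76), as defined below. For Gfra2 there were 22 such cells, 0.899 times the prediction (0.564 to 1.36). Among genes sharing at least 5 cells, desmin ranked 10th of 38 by this ratio for Gfra1 and 26th of 62 for Gfra2. No male cell had 2 desmin counts, so the test across animals could not be fitted for Des cells, and this is a description of 1 section. A threshold of 1 desmin count adds 3 male cells with 6 panel counts, too few to give a level, so it offers no test across animals either. The neuronal markers were also higher in Des cells, to a degree within the intervals of both co-receptors. The sum of Sncg, Tubb3, Stmn2 and Chrna3 stood at 139 against 29.4 in the other cells (4.73-fold, 3.00 to 7.21), from 27 counts in 12 of the 264 cells. The part of these markers in the Gfra1 and Gfra2 results was not tested. With cells of more than 1 marker group left out, the female log2 ratios over both regions were 2.33 for Gfra1 and 1.52 for Gfra2, beside 2.24 and 1.34 with them.

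**Figure D3:**
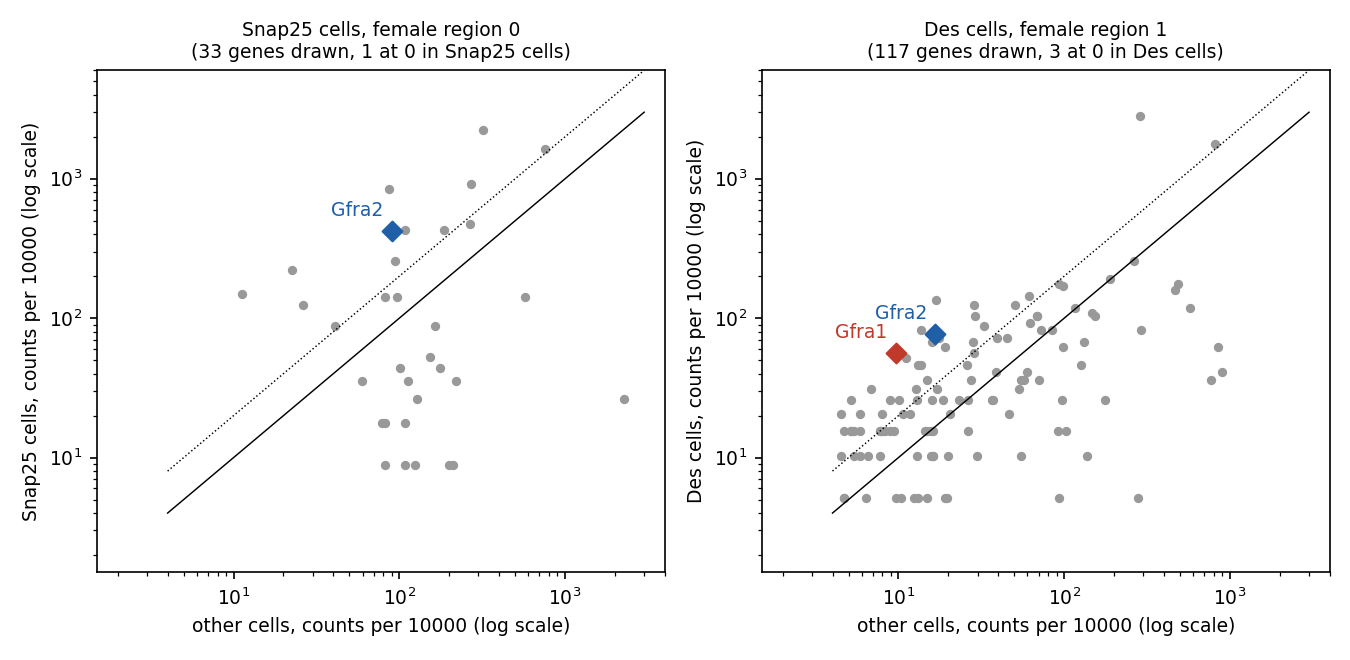
Level of each panel gene with at least 20 counts in Snap25 cells of female region 0 (left) and Des cells of female region 1 (right) against the other cells of the same region, both axes logarithmic; the solid line marks equal levels and the dotted line 2-fold. Gfra2 lies above the dotted line in both panels, and Gfra1, with 15 counts in female region 0 and so not drawn on the left, lies above it on the right.

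Pdgfra cells held few transcripts of either gene. In female region 1, the 533 Pdgfra cells stood at 5.77 for Gfra1 (1.19 to 16.9), against 12.2 in the other cells (9.05 to 16.2), and at 9.62 for Gfra2 (3.12 to 22.5), against 20.2 in the other cells (16.1 to 25.1). The ratios of 0.472 (0.0941 to 1.46) and 0.476 (0.150 to 1.16) span 1, and 7.5% of 120 genes were at least 2-fold lower there. At 3 and 5 counts, the genes were not separable from the blanks in these cells, of which 10 and 4 had as many counts or more. Cells with both Gfra2 and Pdgfra numbered 6 over all regions, 0.282 times the prediction from depth (0.103 to 0.614). Across the animals the log2 fold changes were -1.43 for Gfra1 (SE 0.917, edgeR adjusted p 0.913) and -1.44 for Gfra2 (SE 0.866, edgeR adjusted p 0.896). The male held 29 Pdgfra cells with 1 Gfra2 and 0 Gfra1 counts. edgeR called 2.86% of genes lower, namely Muc6, Ptprz1 and Dlgap1, and neither co-receptor.

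In neuronal-marker cells, the group named for the cell type that needs these co-receptors in development, a difference could not be measured. In female region 1, the 105 cells held 2 Gfra1 and 4 Gfra2 counts, 13.99 (1.69 to 50.5) and 27.97 (7.62 to 71.6) per 10000, against 11.3 and 18.5 in the other cells. The ratios were 1.24 for Gfra1 (0.146 to 4.72) and 1.51 for Gfra2 (0.403 to 4.02), both spanning 1. There 5 blanks had as many counts as Gfra1 or more, and all blanks together were 1.72-fold higher there (1.15 to 2.49). For male 0, male 1 and female 0, the 26, 8 and 14 cells held 3, 0 and 1 Gfra2 counts and no Gfra1 count. Across the animals the log2 fold changes were -1.18 for Gfra1 (SE 1.63, edgeR adjusted p 0.987) and -0.13 for Gfra2 (SE 0.949, edgeR adjusted p 0.987). edgeR called 0% of 104 genes in either direction, where 2 genes had an unadjusted p below 0.05. DESeq2 made 0 calls and had 1 such gene. With 239 counts of other genes in the male cells, a level was not measurable there at this depth.

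Cells with a glial marker count (at least 1 of S100b, Cdh19, Sox10 and Gfap) and absorptive epithelial cells (at least 2 counts summed over Aqp8 and Slc26a3) were set beside these groups. In female region 1, glial-marker cells stood at 22.9 for Gfra1, against 10.7 in the other cells, 2.15-fold (0.749 to 5.04), where 8.47% of 118 genes were at least 2-fold higher. For Gfra2 they stood at 26.7, against 18.3, 1.46-fold (0.568 to 3.15). In female region 0, glial-marker cells stood at 209.6 for Gfra2, against 164 in the other cells, 1.28-fold (0.583 to 2.51), and 11 of these 37 cells were also Snap25 cells. In male region 0 the Gfra2 ratio was 0.445 (0.116 to 1.23). Each of these intervals spans 1. The 917 epithelial cells of female region 1 stood at 10.6 for Gfra1 (5.47 to 18.5) and 19.4 for Gfra2 (12.2 to 29.4), against 14.5 and 23.3 in the other cells, and 8 blanks had as many counts there as Gfra1 or more. In female region 1, Gfra2 was thus highest in Des cells, followed by neuronal-marker, glial-marker, epithelial and Pdgfra cells. Gfra1 had the same order with glial-marker before neuronal-marker cells. Neighbours in this order had overlapping intervals for both genes, Des cells included. The 89 cells of female region 0 with at least 2 counts of the gland mucin gene Muc6 held 3 Gfra1 counts and 1 Gfra2 count on 58 counts of other genes, and 3 blank counts.

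Per panel count, the higher level of female region 0 over female region 1 was also seen outside the marker groups, where the blanks were higher too. In cells of none of the 4 groups, per 10000 of all their panel counts, Gfra2 stood at 112 (71.8 to 167), 179 (77.1 to 352), 88.1 (56.5 to 131) and 17.6 (13.6 to 22.5) for male 0, male 1, female 0 and female 1. Gfra1 stood at 88.7, 67.0, 29.4 and 10.5 in the same cells and order. Of the positive cells, 59.6% of the Gfra2 cells of female region 0 were Snap25 cells (45.8 to 72.4; 34 of 57), and 32.4% in male region 0 (18.01 to 49.8; 12 of 37). Of the Gfra1 cells, 42.9% were Snap25 cells in female region 0 (6 of 14) and 32.1% in male region 0 (9 of 28).

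Gfra1 and Gfra2 met in the same cell about as often as depth alone predicts. The prediction gives each gene a rate per panel count that yields its observed number of positive cells in the region. Cells with both numbered 5, 0, 4 and 2 for male 0, male 1, female 0 and female 1, or 11 in all, against 10.2 predicted, a ratio of 1.08 (0.538 to 1.93). With the counts of the 2 genes left out of depth, the ratio was 1.45 (0.722 to 2.59). Among genes sharing at least 5 cells, the median ratio was 0.751 with Gfra1 and 0.847 with Gfra2. The pair ranked 11th of 38 such genes for Gfra1 and 18th of 62 for Gfra2. They made up 11.3% of the Gfra1-positive and 5.85% of the Gfra2-positive cells. Of the 9 cells in male region 0 and female region 0, 8 were Snap25 cells, none had a count of the 4 neuronal markers, and their depth ran from 6 to 145 panel counts. The 2 cells of female region 1 held no Snap25, Des or Pdgfra count, and 1 of them held 29 epithelial marker counts.

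The genes found with Gfra2 most often beyond depth included Snap25 itself. Among 62 genes sharing at least 5 cells with Gfra2, whose median ratio to the prediction was 0.847, the highest were the synaptic scaffold gene Dlgap1 (52 cells, 1.90-fold, 1.42 to 2.49), the calcium exchanger gene Slc24a3 (16 cells, 1.81-fold, 1.03 to 2.94), the receptor phosphatase gene Ptprz1 (16 cells, 1.77-fold, 1.01 to 2.87), Snap25 (67 cells, 1.62-fold, 1.25 to 2.05) and the presynaptic scaffold gene Pclo (28 cells, 1.61-fold, 1.07 to 2.32). Of the 62 genes, 7 had a lower bound above 1. The 5 named were picked by their ratio in these same data, so their intervals are no test. Of the 52 cells with Gfra2 and Dlgap1, 51 lay outside female region 1. Slc24a3 differed in that 7 of its 16 shared cells lay in female region 1. For Gfra1, 38 genes shared at least 5 cells, with a median ratio of 0.751, and the highest included Cdh19, Ptprz1, Slc24a3 and Dlgap1, from 1.54-fold down to 1.31-fold. Each of these 4 intervals spans 1, and 0 of the 38 genes had a lower bound above 1. Ptprz1, Slc24a3 and Dlgap1 are on both lists, which share the same cells, libraries and depth.

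**Figure D4:**
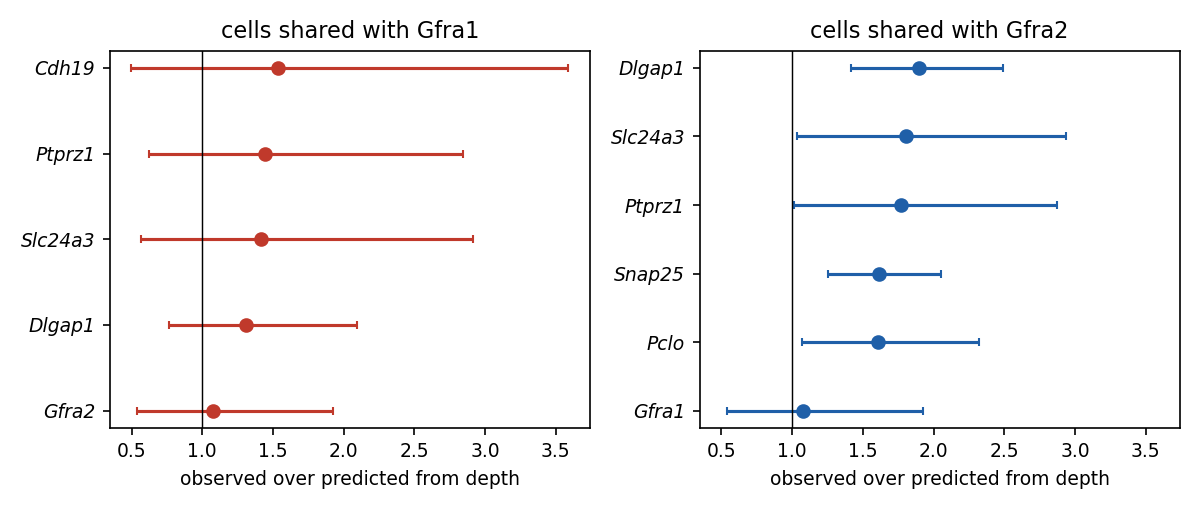
Cells that hold both genes over the number predicted from depth, summed over the 4 regions, for the named genes among the 5 with the highest ratio (4 for Gfra1, 5 for Gfra2) and for the other co-receptor; bars are exact 95% Poisson intervals and the vertical line marks 1. All 5 partners of Gfra2 lie above 1 with their intervals, none of the 4 partners of Gfra1 does, and the 2 co-receptors stand at 1.08 with each other. The partners were picked by this ratio, so their intervals are no test.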

How the data were processed

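Each region's deposited table holds counts, per the file headers: decoded transcripts of a gene, or of a blank barcode, by segmented cell. Seurat is named in the submitters' processing notes, with no role. The sources used here do not give the settings for decoding or segmentation. Sums per region or animal were divided by the panel counts (blanks left out). Intervals are exact Poisson for levels and exact binomial for ratios and shares. Tests used edgeR 4.0.16 in R 4.3.3 on sums per animal with the animal as block (2 animals, 1 residual degree of freedom, genes with at least 50 counts, library size without the group's markers, no TMM). They were also run on simulated sums, all deeper than the real ones. That run therefore does not show how the tests perform at the depth of these data. DESeq2 1.42.0 was an alternative. SE values come from the F statistic. For Des cells the planned test gave way to a ratio, since 1 animal had none. No doublets were removed, and mixing between neighbouring cells was not corrected.

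Members, marker groups and lists were chosen with earlier results of these data known. Named genes are the 2 members, the group markers, up to 5 genes with the highest co-detection ratio (at least 5 shared cells) and up to 3 called genes per direction. For Snap25 cells, all 4 genes that edgeR called lower are named. Dmpk and Cacna1c, and Aqp8, Dlgap1, Pclo and Syt4 in the Snap25 cells, were named after their values were seen. No sequence is printed. One panel gene is not reported here: it was left out of the glial list and of the named partners of Gfra1, and stayed in totals and fits.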

Additional observations from a re-analysis of the deposited data

Results flagged for a closer look

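Gfra2 pointed in opposite directions in the 2 animals for 2 of the cell groups, which is what brought these values here. In neuronal-marker cells the log2 ratio to other cells was -0.36 in the male, on 3 counts, and 0.053 in the female, on 5 counts. In Pdgfra cells it was 0.10 in the male, on 1 count, and -1.84 in the female, on 5 counts. The difference between the animals was not tested in either case.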

How the results depend on the processing

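Of 133 recomputed values, 109 were classed as unchanged. For tested genes this means the same direction and the same side of the threshold. For values with no test it means lying within the SE or the interval, and for counts of called genes a like number. An uncalled gene could thus move far and be classed as unchanged. Gfra1 in neuronal-marker cells, for example, went from -1.18 to -8.16 with at least 2 marker counts. For Gfra2 in Snap25 cells, the call was gained with DESeq2 (log2 3.11) and without female region 1 (1.81), and the 10 alternatives with a test gave adjusted p from 0.00220 to 0.885, all positive; with no replicate block it was 2.26. With 1 animal each, the values were 1.37 to 4.07 for Gfra2 and 1.17 to 2.17 for Gfra1. Gfra2 in neuronal-marker cells turned to 0.65 with at least 2 marker counts and lay between -0.36 and 0.053 with 1 animal left out, and in Pdgfra cells between -1.84 and 0.10. Gfra1 gave no value from the male alone in these 2 groups, at 0 counts. Summed within female region 1, Gfra2 in Des cells was 2.21 (1.34 over the female animal). The female other cells of these fits mix both regions. Genes called in Snap25 cells numbered 4, and 10 with DESeq2, 0 with at least 10 counts per cell, 0 without mixed cells, 1 at 1 Snap25 count, 26 by region, 0 with no replicate block and 18 without female region 1. In Pdgfra cells 3 became 1 with TMM, 0 with DESeq2, 7 with at least 10 counts, 8 without mixed cells, 0 by region and 0 with no replicate block. Per segmented cell, empty ones included, Gfra2 ratios were 2.19 (male regions), 1.81 (female regions) and 0.611 (male over female). Gfra1 ratios were 0.623 (female regions) and 0.859 (male over female). The causes were not tested. Co-detection of the 2 genes kept an interval that spans 1 in each setting. For Des cells the settings of TMM, DESeq2, no filter, no block and an animal left out were not run, since the male had no such cell, and the fit at 1 desmin count is not read as a test, since its male arm held 6 panel counts. In male region 1, at 582 panel counts, differences below several-fold were not detectable at this depth.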
